A study of Mus musculus with 6 samples.

Results

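The lymphotoxin pathway and the organizer genes of splenic white pulp were examined by RNA-seq of whole spleens from female NOD.B10 mice and BL/10 controls. The group holds 10 genes that were listed by name, out of 47729 genes in the count table: the ligand genes Lta and Ltb, the receptor gene Ltbr, the noncanonical NF-kB genes Relb and Nfkb2, the chemokine genes Ccl19, Ccl21a and Cxcl13, and the stromal genes Madcam1 and Pdpn. NOD.B10 (NOD.B10Sn-H2b/J) is a mouse strain with a disease like primary Sjögren's syndrome (pSS), whose H2 region is of the b haplotype, and BL/10 (C57BL/10, C57BL10/SnJ in the labels) is the healthy control strain. The labels name no treatment and describe the 3 libraries of each strain as biological replicates. The libraries held between 15662712 and 18298451 counted reads. Levels are given in CPM, counts scaled to a library of 1000000 reads. Detection was set at 3 reads, equal to 0.164 to 0.192 CPM, a limit that covers counting error only.

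The labels name the strain of each library in opposite ways. Titles and strain fields give 1 strain, and descriptions and column names of the table give the other. The strains used here are those of the descriptions and columns, and under the titles each direction given in the text would be reversed. Ifi202b, fixed as a check of the labels, was read 485 to 838 times in the libraries called NOD.B10 and 0 to 2 times in those called BL/10, and it was not used to assign them. By the labels of these samples, BL/10 replicates 2 and 3 came from mice of 36 weeks and the other 4 libraries from mice of 26 weeks. The paper instead describes the controls as matched in age. The ages belong to the same labels as the titles that were set aside, and whether they are right was not tested. Every result with age in the model rests on them. By these ages, age and strain overlap in part, and calls with age in the model are given beside the counts that it moved. In that model the strain difference is NOD.B10 against BL/10 replicate 1 alone, the only BL/10 library of 26 weeks. A call with age is thus a contrast with 1 library, whose content of pancreas RNA is given below. Tlx1 and Nkx2-3, transcription factor genes of spleen stroma, were read in all 6 libraries (at least 316 and 198 counts). Pancreas acinar genes, which a spleen should lack, had a summed level of 15422.8 CPM in BL/10 replicate 1, 2352.1 and 118.6 CPM in BL/10 replicates 2 and 3, and between 23.5 and 32.1 CPM in NOD.B10.

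White pulp is the lymphoid part of the spleen, in which T cells gather around a central arteriole and B cells gather in follicles. Lymphocytes carry lymphotoxin alpha and beta on their surface as a heterotrimer, which binds the lymphotoxin beta receptor on stromal cells. The receptor stabilizes the kinase NIK, which leads to processing of the Nfkb2 product p100 to p52, and p52 enters the nucleus with RelB. Among the genes known to depend on this route are those of the homing chemokines CCL19, CCL21 and CXCL13 and of the adhesion molecule MAdCAM-1, and CXCL13 in turn raises lymphotoxin on B cells. In the spleen, MAdCAM-1 is known from cells that line the marginal sinus, and podoplanin, the product of Pdpn, from reticular cells of the T cell zone.

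Sequence decides which of these genes can be read at all by short reads, and the coding stretches in which Ccl19 and Ccl21a differ from a copy are shown for this reason. Capitals mark the bases that differ, and positions are counted from 1 at the first base of the coding sequence (GENCODE M21 transcripts, GRCm38). Bases 61 to 125 of Ccl19 are set beside those of its pseudogene Ccl19-ps1, and bases 77 to 201 of Ccl21a beside those of Ccl21b.
Ccl19: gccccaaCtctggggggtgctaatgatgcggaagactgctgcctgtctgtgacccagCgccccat
Ccl19-ps1: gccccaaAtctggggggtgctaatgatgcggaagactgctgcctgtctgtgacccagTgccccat
Ccl21a: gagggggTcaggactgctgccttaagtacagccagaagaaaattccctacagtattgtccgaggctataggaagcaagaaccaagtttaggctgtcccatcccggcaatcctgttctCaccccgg
Ccl21b: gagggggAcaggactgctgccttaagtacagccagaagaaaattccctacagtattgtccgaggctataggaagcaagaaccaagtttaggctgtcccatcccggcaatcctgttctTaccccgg

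Over 327 coding bases, Ccl19 and Ccl19-ps1 differed at 4 positions (T2C, C68A, C118T and A267C), of which T2C removes the start codon of the copy. Over 402 coding bases, Ccl21a and Ccl21b differed at 2 positions (T84A and C194T). The coding sequences of Gm10591, Gm13304 and Gm21541 were identical to that of Ccl21b. Of the 914 windows of 50 bases in Ccl19 transcripts, 475 were also found in transcripts of another gene, and of the 821 windows of Ccl21a, 588 were. No window of Lta, Ltb, Ltbr, Madcam1 or Cxcl13 was shared in this way. The share was 14.9% for Nfkb2, 0.674% for Relb and 0.0552% for Pdpn. For Nfkb2, 457 windows were shared with AC114539.1 and 250 with Psd, a neighbour on the other strand. The counted exons of Nfkb2 and Psd overlap by 4 bases. Reads that map to several places were left out by the default counting settings. Reads of 50 bases are therefore missing from the counts where shared windows lie at separate places of the genome. Whether those of Nfkb2 do was not tested.

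Promoters were examined because NF-kB binds a known motif. The Madcam1 promoter is shown in full since this gene passed the test between strains and held the motif. Ccl19 passed that test too, but was not among the genes with a match. The 250 bases before the RefSeq start (GRCm38.p6, chr10:79664309-79664558, plus strand) were searched for GGGNNTTTCC on both strands, and capitals mark each match.
Madcam1: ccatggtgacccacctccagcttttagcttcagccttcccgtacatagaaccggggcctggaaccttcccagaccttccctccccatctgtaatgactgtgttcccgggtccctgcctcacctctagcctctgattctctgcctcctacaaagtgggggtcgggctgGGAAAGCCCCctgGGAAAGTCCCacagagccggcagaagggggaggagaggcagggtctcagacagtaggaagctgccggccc

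The motif was also found in the promoters of Ltb (chr17:35194410-35194439) and Nfkb2 (chr19:46304716-46304736 and chr19:46305695-46305724), of which 30 bases or fewer around each match are shown on the plus strand.
Ltb: aagggtgttcGGAAAGTCCCcgggcagggg
Nfkb2, first start: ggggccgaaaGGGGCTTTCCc
Nfkb2, downstream start: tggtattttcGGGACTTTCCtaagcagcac

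RefSeq promoters were found for 9 of the 10 genes, and 3 of them (Ltb, Madcam1 and Nfkb2) held GGGNNTTTCC, which 1.41% of all 32851 promoters hold within the same distance. The same 3 genes held its form GGGACTTTCC, found in 0.14% of all promoters and ending 61 bases before the start in Madcam1 and 78 bases before it in Ltb. The second match in Madcam1, GGGGCTTTCC, lies between 83 and 74 bases before the start and does not overlap the first, and this form was found in 0.131% of all promoters. Both forms were taken from the matches in the promoters of these genes, so that their shares over all promoters are no test of the group. The shares count promoters, and the 9 genes had 11 of them. The downstream start of Nfkb2 has its match in bases that are annotated as exon. A match describes these letters of the C57BL/6J reference only, and alleles of the strains studied were not read.

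Of the 10 genes, 9 passed the filter on low counts and were tested, and 2 of them, Ccl19 and Madcam1, passed an adjusted p of 0.05, both higher in NOD.B10 spleens. The background was close to this share, since 17.3% of all 15330 tested genes passed, 9.11% as higher and 8.22% as lower in NOD.B10. The count by itself is therefore no result about the group. The log2 fold change was above 0 for 7 of the 9 genes, against 50.1% of all tested genes, and its median was 0.43, against 0.0006 over all tested genes. With age in the model, the log2 fold change was -0.64 for Pdpn, -0.28 for Relb, 0.02 for Lta and 0.04 for Ltb. It was then 0.06 for Nfkb2, 0.17 for Cxcl13, 0.21 for Ltbr, 0.58 for Madcam1 and 1.62 for Ccl19. These values only describe the group, since its genes were chosen with earlier results of these data known. The NOD.B10 libraries all lay above the BL/10 libraries for 3 of the 9 genes (Ccl19, Madcam1 and Cxcl13), against 20.5% of all tested genes. Adjusted p-values are from the quasi-likelihood test of edgeR with Benjamini-Hochberg adjustment over all tested genes. These are whole spleens, in which fewer cells of a type and less RNA per cell cannot be told apart.

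**Figure D1:**
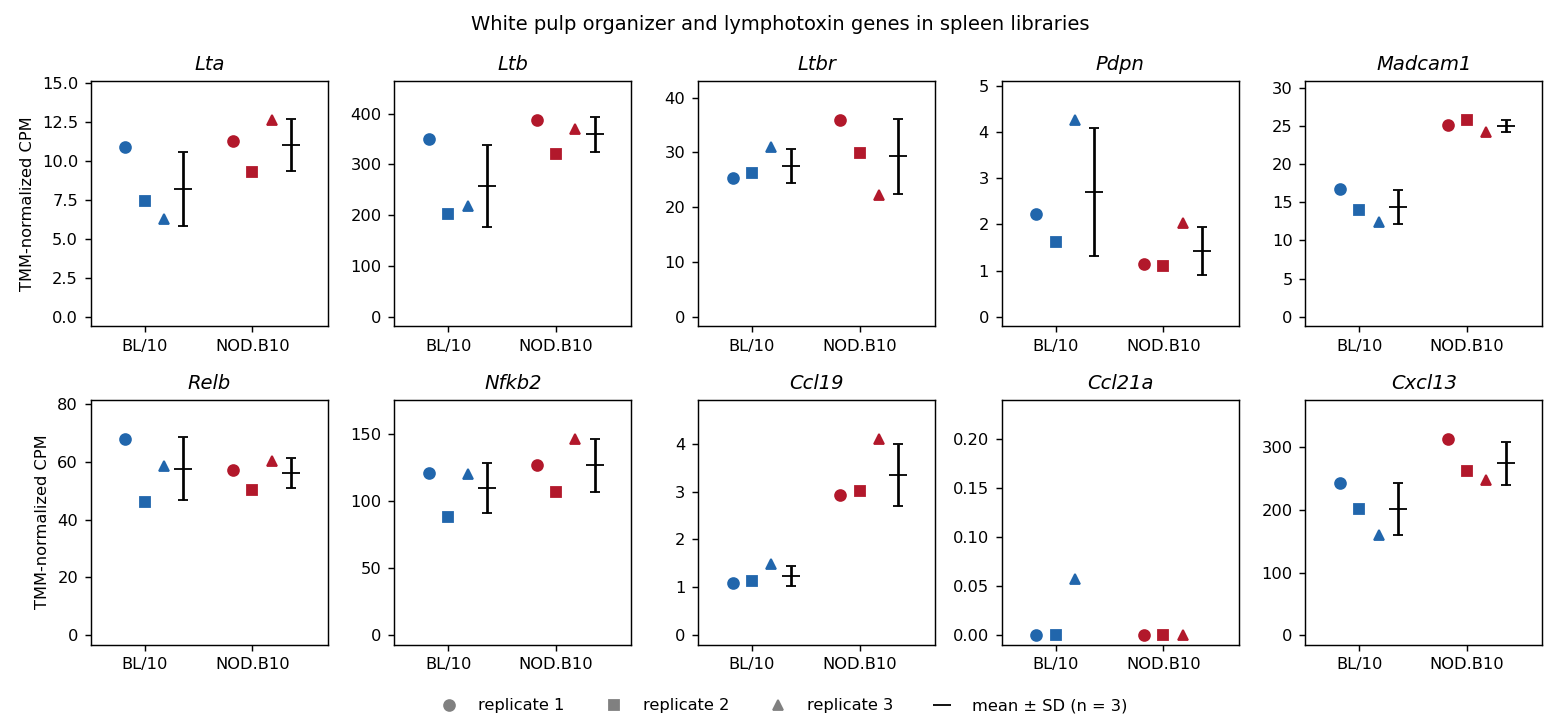
Normalized counts (CPM, vertical axes from 0) of the 10 genes in each library of BL/10 (blue) and NOD.B10 (red), with replicates as symbols and the mean ± SD of 3 libraries in black, left out for Ccl21a. Madcam1, Ccl19 and Cxcl13 do not overlap between strains, Lta and Ltb of BL/10 replicate 1 lie among the NOD.B10 libraries, and Ccl21a is at or near 0 in every library.

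Ccl19 (ENSMUSG00000071005, chromosome 4 from 42754525 to 42756577) encodes a T cell zone chemokine that draws T cells and dendritic cells through the receptor CCR7. Its level was 2.93, 3.01 and 4.10 CPM in NOD.B10 (49, 49 and 73 counts) and 1.09, 1.14 and 1.48 CPM in BL/10 (20, 17 and 26 counts). The highest BL/10 library lay below the lowest NOD.B10 library. The log2 fold change was 1.43 (standard error 0.24, edgeR adjusted p = 0.0069), and with each library left out in turn it stayed between 1.26 and 1.58 and past the threshold. With age in the model the log2 fold change was 1.62 (edgeR adjusted p = 0.0478).

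The reads of Ccl19 are shared among its copies, which were therefore counted beside it. For Ccl19-ps1 (chromosome 4, bases 41921405 to 41923020), 24, 36 and 53 reads were counted in NOD.B10, as compared to 14, 10 and 16 in BL/10. The strains did not overlap for this pseudogene either, and its log2 fold change of 1.49 (standard error 0.33, edgeR adjusted p = 0.0199) was close to that of Ccl19. Gm12407 went another way, with 6, 6 and 8 reads in NOD.B10, as compared to 7, 11 and 9 in BL/10, too few to be tested. Gm2564 and Ccl19-ps3 had 0 counts in every library. When the 5 loci were summed, the NOD.B10 libraries held 79, 91 and 134 reads, as compared to 41, 38 and 51 in BL/10. The sum was also higher in NOD.B10 (log2 fold change 1.22, standard error 0.23, edgeR adjusted p = 0.0107). How many copies each strain carries was not tested.

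**Figure D2:**
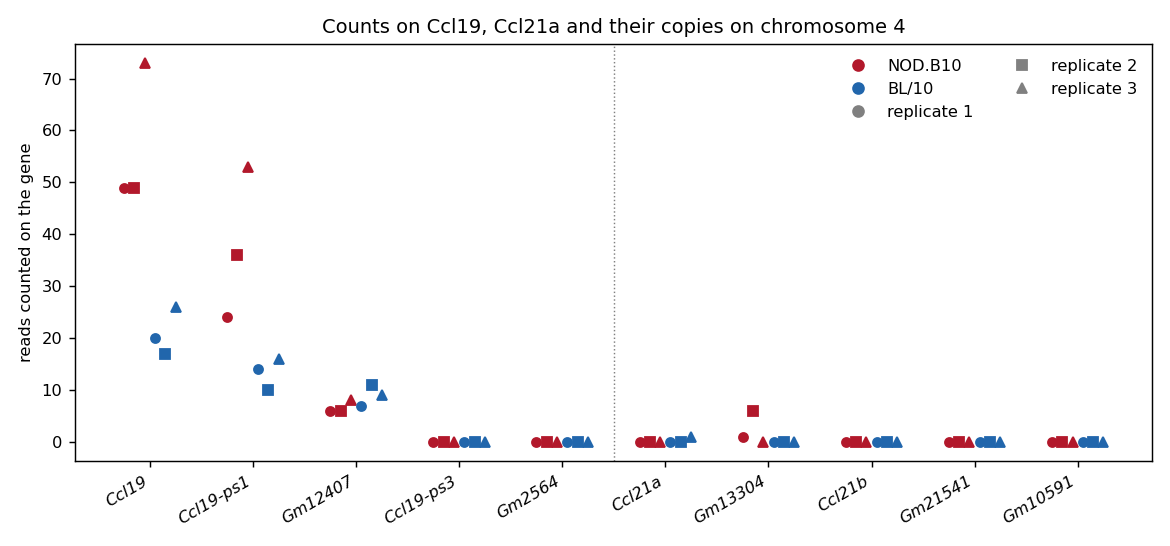
Reads counted on Ccl19, Ccl21a and their copies on chromosome 4 (vertical axis, raw counts per library), with NOD.B10 in red, BL/10 in blue and replicates as symbols. Ccl19 and Ccl19-ps1 are higher in all 3 NOD.B10 libraries, while Ccl21a and most copies are at 0.

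Ccl21a (ENSMUSG00000094686, chromosome 4 from 42772860 to 42773993), whose product is the other CCR7 ligand of the T cell zone, was read 0 times in all 3 NOD.B10 libraries, and 0, 0 and 1 times in BL/10. All libraries were below the floor, so that no fold is given and the gene was not tested. Its copies Ccl21b, Gm21541 and Gm10591 had 0 counts throughout, and Gm13304 was read 1, 6 and 0 times in NOD.B10 libraries and never in BL/10. These values describe reads that fit 1 place only, and the level of CCL21 transcripts as a whole was not measured by them.

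Madcam1 (ENSMUSG00000020310, chromosome 10 from 79664574 to 79668536) encodes the addressin that binds the integrin α4β7. It had 25.2, 25.8 and 24.2 CPM in NOD.B10 and 16.8, 14.0 and 12.4 CPM in BL/10. The NOD.B10 libraries lay close together, with a mean of 25.1 ± 0.795 CPM (SD, n = 3), and all were above the BL/10 mean of 14.4 ± 2.22 CPM (SD, n = 3). The log2 fold change was 0.80 (standard error 0.13, edgeR adjusted p = 0.00566) and stayed between 0.69 and 0.92 with each library left out. With age in the model it was 0.58 (standard error 0.14) and no longer passed (edgeR adjusted p = 0.0677).

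MAdCAM-1 is also known from high endothelial venules of mucosal lymph nodes, so markers of such vessels were read. Of 5 listed genes, 4 were tested, 0 were higher and 2 were lower in NOD.B10, against 9.11% and 8.22% of all tested genes. For Glycam1, a sulfated glycoprotein of these venules, 2, 3 and 9 reads were counted in NOD.B10, as compared to 19, 16 and 14 in BL/10 (log2 fold change -1.78, edgeR adjusted p = 0.0348). BL/10 libraries thus carried Glycam1 through the filter on low counts. With at least 10 counts required in every library, 1 gene of the list passed, against 14.8% of all tested genes. Chst4, the sulfotransferase of these venules, had 1 or 2 reads in each NOD.B10 library, as compared to 7 to 20 in BL/10, and was not tested. Gcnt1, a glycosyltransferase gene of broader expression, was lower too (log2 fold change -1.12, edgeR adjusted p = 0.00212). Ubd, a ubiquitin-like protein gene, had 38.9, 14.9 and 28.0 CPM in NOD.B10, as compared to 19.2, 9.46 and 10.3 CPM in BL/10. Neither Ubd (1.07 on the log2 scale, edgeR adjusted p = 0.0934) nor Fut7 (-0.66, edgeR adjusted p = 0.11) passed. Among fits with a library left out, Ubd passed only without BL/10 replicate 1 or NOD.B10 replicate 2. With DESeq2 or a filter of 1 count, 4 genes of this list passed, against 17.4% and 11.5% of all tested genes. Only Gcnt1 of this list passed with age in the model, where 6.15% of all tested genes passed. Glycam1 lost its call in 5 of 6 fits with a library left out, all but the one without NOD.B10 replicate 3. The part of such vessels in the level of Madcam1 was not tested.

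Cxcl13 (ENSMUSG00000023078, chromosome 5 from 95956951 to 95961068) encodes the follicular chemokine that draws B cells through CXCR5. It had 313.8, 262.4 and 248.6 CPM in NOD.B10 and 243.9, 200.9 and 159.8 CPM in BL/10. The lowest NOD.B10 library stood just above BL/10 replicate 1, so that the strains did not overlap by a narrow gap. The difference (0.45 on the log2 scale, standard error 0.17) did not pass (edgeR adjusted p = 0.107).

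Pdpn (ENSMUSG00000028583, chromosome 4 from 143267431 to 143299564) was the only gene of the group with a fold change well below 0. It had 1.14, 1.11 and 2.02 CPM in NOD.B10 (19, 18 and 36 counts) and 2.23, 1.61 and 4.26 CPM in BL/10 (41, 24 and 75 counts). The strains overlapped, and the log2 fold change of -0.92 (standard error 0.42) did not pass (edgeR adjusted p = 0.16). BL/10 replicate 3 was highest, and without it the log2 fold change was -0.44. The same library had the highest summed level of adipocyte markers (386 CPM, against 115.4 to 161.8 CPM in the other 5), of which 9 were tested and 0 passed, and their part in the result was not tested.

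The ligand genes lie close together on chromosome 17 in the H2 region, Ltb (ENSMUSG00000024399) from 35194439 to 35196320 and Lta (ENSMUSG00000024402) from 35203165 to 35205351. Ltb, whose product holds lymphotoxin at the cell surface, had 386.8, 320.6 and 369.8 CPM in NOD.B10 and 349.4, 203.1 and 218.3 CPM in BL/10. BL/10 replicate 1 lay within the NOD.B10 range, and the other BL/10 libraries lay well below it. The log2 fold change was 0.48 (standard error 0.21, edgeR adjusted p = 0.148). Lta, the subunit that is also secreted, had 11.2, 9.27 and 12.6 CPM in NOD.B10 and 10.9, 7.44 and 6.25 CPM in BL/10. It showed the same layout, with BL/10 replicate 1 among the NOD.B10 libraries, and a log2 fold change of 0.43 (standard error 0.22, edgeR adjusted p = 0.211).

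The calls of both ligands and of Cxcl13 moved with this library. Without BL/10 replicate 1, the log2 fold change was 0.76 for Ltb (standard error 0.11, edgeR adjusted p = 0.00451), 0.68 for Lta (standard error 0.18, edgeR adjusted p = 0.0299) and 0.60 for Cxcl13 (standard error 0.15, edgeR adjusted p = 0.0234). Without that library, 5 of the 9 genes passed, all higher in NOD.B10, against 26.3% of all tested genes (12.3% higher). With limma-voom and quality weights, which let libraries that deviate count for less, Ltb and Cxcl13 passed beside Ccl19 and Madcam1 (log2 fold changes of 0.62 and 0.56), against 21.8% of all tested genes. With age in the model, which leaves BL/10 replicate 1 as the only BL/10 library of 26 weeks, the log2 fold change was 0.04 for Ltb, 0.02 for Lta and 0.17 for Cxcl13 (edgeR adjusted p of 0.924, 0.971 and 0.687). With age, 1 of the 9 genes passed, Ccl19, against 6.15% of all tested genes. Without NOD.B10 replicates 1, 2 and 3 in turn, 2 of the 9 passed each time, against 8.12%, 12.9% and 8.95% of all tested genes, and without BL/10 replicates 2 and 3, 2 passed as well, against 10.1% and 11.2%. The count was also 2 with RLE (17.5% of all tested genes) or upper-quartile factors (17%), with DESeq2 (17.4%), without hemoglobin, immunoglobulin and pancreas genes (17.9%), and with a filter of 1 count (11.5%) or of 10 counts in every library (14.8%). BL/10 replicate 1 differs from the other BL/10 libraries in its labelled age and in its content of pancreas RNA at once, and their parts cannot be told apart.

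**Figure D3:**
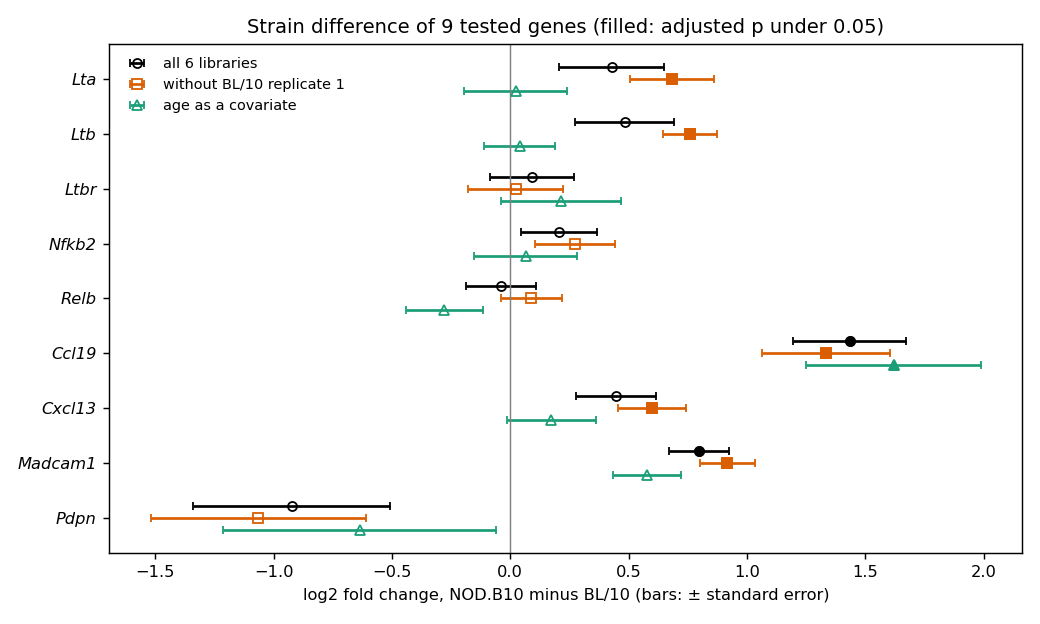
Log2 fold change (horizontal axis, NOD.B10 minus BL/10) with standard error of the 9 tested genes from all 6 libraries (black circles), without BL/10 replicate 1 (orange squares) and with age as a covariate (green triangles), where filled symbols have an adjusted p under 0.05. Ccl19 is filled in all 3 fits, and Ltb moves from 0.48 to 0.76 and 0.04.

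Most T cell markers moved with the strains too. Cd8a, Cd8b1 and Ubash3a did not pass (log2 fold changes of 0.16, -0.40 and 0.20, edgeR adjusted p of 0.528, 0.19 and 0.288). Over all tested genes, 9.11% were higher and 8.22% lower in NOD.B10. The share of all tested genes that passed was 6.15% with age in the model and 26.3% without BL/10 replicate 1. The summed level of 20 T cell markers was between 1422.9 and 1886.9 CPM in NOD.B10 and was 849.2, 720.5 and 628.6 CPM in BL/10, and 17 of them were higher in NOD.B10 (13 with age in the model). Of 15 B cell markers, 1 was higher (Ighm), and the other 14 did not pass and overlapped between strains. Without Ighm, the B cell sum was 5317.8, 4583.5 and 5874.8 CPM in NOD.B10, as compared to 6467.1, 3489.8 and 3864.2 CPM in BL/10. BL/10 replicate 1 was thus the highest of all 6 libraries in this sum, and the highest BL/10 library in the T cell sum, as it was for Ltb and Lta. Without BL/10 replicate 1, 9 B cell markers passed, and Ighm alone brought the full sum to between 18413.2 and 21860.3 CPM in NOD.B10 and between 10431.8 and 15021.0 CPM in BL/10. The summed level of neutrophil markers was 6232.1 CPM in this library and 12998.4 and 11405.9 CPM in the other BL/10 libraries, against 2204.6 to 2558.1 CPM in NOD.B10, and 11 of 12 were lower in NOD.B10 (7 with age in the model). Of 12 erythroid markers, 1 was lower (Hba-a2), with a sum between 28437.0 and 50640.6 CPM in NOD.B10 and 31470.7, 62829.2 and 70835.5 CPM in BL/10. The part of these cells in the levels of the lymphotoxin and chemokine genes was not tested.

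Within 100000 bases of Lta, 15 other genes were tested, of which 0 were higher and 1 (Ly6g5b) was lower in NOD.B10. Over all tested genes, 9.11% were higher and 8.22% lower. The median over the 15 genes was 0.01 on the log2 scale. Tnf, which lies between Ltb and Lta and encodes a related cytokine, had 5.08, 4.30 and 6.13 CPM in NOD.B10 and 3.37, 3.62 and 3.52 CPM in BL/10. The strains did not overlap, but the difference of 0.56 on the log2 scale (standard error 0.18) did not pass (edgeR adjusted p = 0.0722).

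The receptor gene and both noncanonical NF-kB genes overlapped between strains. Ltbr (ENSMUSG00000030339, chromosome 6 from 125306571 to 125313885) had 35.9, 29.9 and 22.2 CPM in NOD.B10 and 25.3, 26.2 and 31.0 CPM in BL/10. The highest and the lowest level were both in NOD.B10, and the log2 fold change was 0.09 (standard error 0.18, edgeR adjusted p = 0.752). Nfkb2 (ENSMUSG00000025225, chromosome 19 from 46304737 to 46312090), the gene of p100, ranged from 106.8 to 146.2 CPM in NOD.B10 and from 87.7 to 121.0 CPM in BL/10. The strains differed by 0.21 on the log2 scale (standard error 0.16, edgeR adjusted p = 0.399). Relb (ENSMUSG00000002983, chromosome 7 from 19606217 to 19629438), the gene of its partner, ranged from 50.4 to 60.4 CPM in NOD.B10 and from 46.2 to 67.9 CPM in BL/10. The log2 fold change of Relb was -0.04 (standard error 0.15, edgeR adjusted p = 0.878). The differences in Ltbr and Relb were smaller than their standard errors.

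Per length of exon (RPKM, CPM per 1000 bases), the genes spanned a wide range of levels. In NOD.B10 the means were 239.0 RPKM for Cxcl13, 236.9 for Ltb, 38.5 for Nfkb2, 17.7 for Madcam1, 14.4 for Relb, 12.5 for Ltbr, 7.98 for Lta, 3.86 for Ccl19 and 0.782 for Pdpn. Cxcl13 and Ltb overlapped, as did Relb and Ltbr, and the other neighbours in this order did not overlap. In BL/10 the order differed at the places of Madcam1 and Pdpn, with means of 175.2 RPKM for Cxcl13, 169.5 for Ltb, 33.3 for Nfkb2, 14.8 for Relb, 11.7 for Ltbr, 10.1 for Madcam1, 5.92 for Lta, 1.49 for Pdpn and 1.42 for Ccl19. Madcam1 overlapped with Ltbr there, and Pdpn with Ccl19. Since 52% of the windows of Ccl19 are shared, its level per length is a lower value than that of all its reads.

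The other genes of the lymphotoxin, TNF and NF-kB routes were counted next. Of 32 such genes, all tested, 2 were higher and 0 lower in NOD.B10, against 9.11% and 8.22% of all tested genes. A log2 fold change above 0 was found for 26, with a median of 0.22. Without BL/10 replicate 1, 12 of the 32 passed, against 26.3% of all tested genes. With limma-voom and quality weights 6 passed (21.8% of all tested genes), and with DESeq2 4 passed (17.4%). The count was 1 with age in the model (6.15%), without NOD.B10 replicate 1 (8.12%) or 3 (8.95%), and without BL/10 replicate 2 (10.1%) or 3 (11.2%). Cd40lg, the T cell ligand of CD40, rose most (6.40, 5.83 and 8.60 CPM in NOD.B10 and 2.50, 1.54 and 1.31 CPM in BL/10, log2 fold change 1.95, edgeR adjusted p = 0.00358). Ikbkb, the gene of a kinase of the canonical route, was higher by 0.47 on the log2 scale (standard error 0.11, edgeR adjusted p = 0.0246), a call that was lost with age in the model (edgeR adjusted p = 0.229). Map3k14, the gene of NIK, ranged from 54.1 to 66.1 CPM in NOD.B10 and from 42.3 to 54.0 CPM in BL/10. This difference (0.37 on the log2 scale, standard error 0.12) did not pass (edgeR adjusted p = 0.075).

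Among all tested genes, 17.3% passed. Among 20 receptors, partners and scavengers of white pulp homing, 6 were higher, 1 was lower and 13 did not pass, with a median log2 fold change of 0.39. This count of 7 was not stable, since 0 passed without NOD.B10 replicate 1, 3 without NOD.B10 replicate 3, 3 and 2 without BL/10 replicates 2 and 3, and 1 (Clec1b) with age in the model. Without NOD.B10 replicates 1 and 3, 8.12% and 8.95% of all tested genes passed, and without BL/10 replicates 2 and 3, 10.1% and 11.2%. The share was 6.15% with age in the model. Ackr4, a scavenger of CCL19 and CCL21, had 9.63, 5.04 and 4.61 CPM in NOD.B10 and 3.42, 1.21 and 2.10 CPM in BL/10 (log2 fold change 1.49, standard error 0.41, edgeR adjusted p = 0.0451). Il7r, the receptor of a survival cytokine of T cells, and S1pr1, a receptor for exit from lymphoid tissue, had log2 fold changes of 1.02 and 0.75 (edgeR adjusted p of 0.0379 and 0.0153). With age in the model, the edgeR adjusted p was 0.379 for Ackr4, 0.18 for Il7r, 0.174 for S1pr1 and 0.279 for Itgb7, and Clec1b passed (0.0104).

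The direct partners of the 10 genes were read as well. Itgb7, the beta chain of the MAdCAM-1 receptor, was higher in NOD.B10 (log2 fold change 0.63, standard error 0.16, edgeR adjusted p = 0.0318), and Itga4, its alpha chain, had a log2 fold change of -0.13 (edgeR adjusted p = 0.413). For Ccr7, the receptor of CCL19 and CCL21, the log2 fold change was 0.49 (standard error 0.19, edgeR adjusted p = 0.117), with 117.2 CPM in BL/10 replicate 1 and 72.4 and 85.5 CPM in the other BL/10 libraries. Cxcr5, the receptor of CXCL13, showed the same layout (log2 fold change 0.41, standard error 0.21, edgeR adjusted p = 0.205), with 224.7 CPM in BL/10 replicate 1 and 136.7 and 154.4 CPM in replicates 2 and 3. Ccr7, Cxcr5 and Map3k14 passed without BL/10 replicate 1 and in no other fit with a library left out. Clec1b, which encodes the podoplanin receptor CLEC-2 of platelets and some myeloid cells, was lower in NOD.B10, with 40.7, 46.1 and 27.7 CPM against 108.3, 69.1 and 75.6 CPM (log2 fold change -1.15, standard error 0.23, edgeR adjusted p = 0.0137).

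As background, 17.3% of all tested genes passed. Of 20 genes listed for reticular and follicular dendritic cells, 7 were higher, 1 was lower and 12 did not pass (median log2 fold change 0.31). Other cells of a whole spleen can express genes of this list too, and their part was not tested. Of the 8 calls, 3 were made with age in the model (6.15% of all tested genes), and 4 without NOD.B10 replicate 1 (8.12%) or BL/10 replicate 2 (10.1%). Grem1, Sparc and Lum passed with age and with each library left out, and Pdgfra did not pass with age (edgeR adjusted p = 0.06). Grem1, a BMP antagonist of reticular fibroblasts, had 14.5, 15.9 and 16.6 CPM in NOD.B10 and 9.07, 6.97 and 7.56 CPM in BL/10 (log2 fold change 0.99, standard error 0.13, edgeR adjusted p = 0.00292). Sparc, a matricellular protein gene, and Pdgfra, a growth factor receptor of fibroblasts, had log2 fold changes of 0.86 and 0.75 (edgeR adjusted p of 0.0046 and 0.0193). Lum, the gene of the matrix proteoglycan lumican, was lower, with 25, 21 and 32 reads in NOD.B10, as compared to 81, 80 and 89 in BL/10 (log2 fold change -1.68, standard error 0.20, edgeR adjusted p = 0.00173).

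Nkx2-3, a transcription factor gene which is known to be needed for Madcam1 in the spleen, differed by 0.25 on the log2 scale (standard error 0.18, edgeR adjusted p = 0.367). Its levels overlapped between strains, from 16.1 to 21.2 CPM in NOD.B10 and from 12.9 to 18.8 CPM in BL/10.

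**Figure D4:**
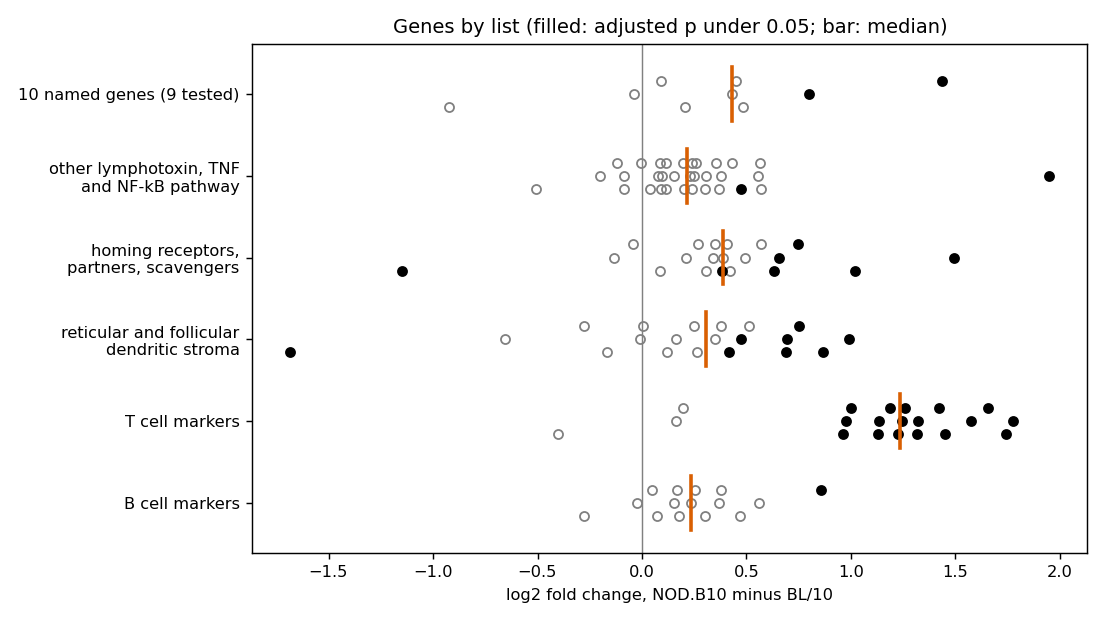
Log2 fold change (horizontal axis, NOD.B10 minus BL/10) of each tested gene by list, where filled points have an adjusted p under 0.05 and the orange bar is the median of the list. All values are from the fit without age. The median is 0.43 for the lymphotoxin and organizer genes. It is 0.22, 0.39 and 0.31 for the pathway, homing and stroma lists, and 1.23 for T cell markers.

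The genes most like Madcam1 over the 6 libraries were Phf20, Eml5 and Fah. Likeness was the root mean square difference of log2 CPM (0.1 added) after each gene was centred on its mean, which was 0.06, 0.06 and 0.07. Those most like Ccl19 were Adamts13, Tlr12 and 6030443J06Rik, with differences of 0.08, 0.11 and 0.11. These are descriptions only, over libraries that differ in strain, labelled age and depth.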

How the data were processed

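RNA from spleens of female mice, 3 NOD.B10 and 3 BL/10, was read in single-end runs of 50 cycles. The authors deposited raw read counts per gene, made with featureCounts version 1.5.1 on exons of Ensembl annotation 84 (GRCm38), without strand and without multi-mapping reads by default. The aligner is Tophat2 in the paper and HISAT2 version 2.0.5 in the submitters' processing notes. Symbols came from GENCODE M21, and 47224 of 47729 identifiers matched. No column of another sample was present.

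Counts were filtered with filterByExpr, scaled by TMM and compared by the quasi-likelihood test of edgeR version 4.0.16 in R version 4.3.3, with BL/10 as the reference and an adjusted p of 0.05. Standard errors are the fold change over the square root of F. Replicates differed by more than counting error (chi-square per degree of freedom at least 13.4). A permutation test of 3 against 3 libraries was not used, since it cannot go below 0.1. The procedure was tested on simulated counts. The members and gene lists were chosen with earlier results of these data known. From each list, up to 3 called genes per direction with the largest fold change and at least 10 counts in each library of the higher strain were named. The rule also covers copies of Ccl19 and Ccl21a, genes that start within 100000 bases of Lta, Ccl19 or Ccl21a, the 3 genes most like each called member, and Ifi202b. Ccr7, Cxcr5, Itga4, Itgb7, Map3k14, Nkx2-3, Tlx1, Chst4, Fut7, Ubd, Psd, AC114539.1, Cd8a, Cd8b1 and Ubash3a were named outside it after values were seen. Alternatives were DESeq2 version 1.42.0, limma-voom version 3.58.1 with sample quality weights, other scalings, filters and thresholds, age, a replicate block and leaving out libraries. The result of 1 list, transcription factors of spleen stroma, is not reported here.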

Additional observations from a re-analysis of the deposited data

How the results depend on the processing

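Of the 10 lymphotoxin and organizer genes, 2 passed in all alternatives but these: 4 with limma-voom and quality weights (Ccl19, Cxcl13, Ltb and Madcam1, where 21.8% of all tested genes passed), 4 with the replicate block (Ccl19, Cxcl13, Madcam1 and Pdpn, where 18.8% passed), 1 with age as a covariate, and between 2 and 5 with each library left out, 5 only without BL/10 replicate 1. Over all tested genes, 2656 passed, against 943 with age as a covariate, 1035 at an adjusted p under 0.01 and between 1269 and 4107 with each library left out, lowest when NOD.B10 replicate 1 and highest when BL/10 replicate 1 was left out. Ccl19 passed in all 16 alternatives, with a log2 fold change between 1.22 and 1.62, and Madcam1 in 14 of 15. The sum of Ccl19 with its copies and the B cell sum without Ighm were chosen after the data were seen. The log2 fold change of Relb reversed with limma-voom and quality weights (0.0148), and with each library left out it ran from -0.175 to 0.0886, and that of Ltbr from -0.0795 to 0.258. The cause of these moves was not tested. Replicate numbers of the titles did not pair the libraries, since the deviations of same-numbered libraries correlated by 0.0316, 0.172 and -0.0837, and not every library correlated best with its own number. Ccl21a, Ccl19 and Pdpn had at most 75 counts in a library, and reads in shared windows are missing for the first and second of them.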

Other observations

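The counts of each list in this section stand beside 17.3% of all tested genes that passed, 9.11% as higher and 8.22% as lower in NOD.B10. Markers of the cells that border the white pulp moved apart. Of 10 marginal zone and metallophilic macrophage markers, 2 were higher and 2 lower in NOD.B10 (median -0.21 on the log2 scale). Cd209b, a lectin gene of marginal zone macrophages, had 26.0, 21.4 and 28.9 CPM in NOD.B10 and 72.2, 78.7 and 76.7 CPM in BL/10 (log2 fold change -1.57, standard error 0.12, edgeR adjusted p = 0.000202). Cd5l, a secreted macrophage protein gene, was also lower (log2 fold change -1.63, edgeR adjusted p = 0.000666). Siglec1, the sialoadhesin of metallophilic macrophages, was higher (log2 fold change 0.52, edgeR adjusted p = 0.0472), as was the lectin gene Cd209d (1.02, edgeR adjusted p = 0.0255). Cd209b and Cd5l passed with age in the model and with each library left out, while Siglec1 and Cd209d did not pass with age (edgeR adjusted p of 0.0618 and 0.26) and lost their calls in 5 and 4 of 6 fits with a library left out. Cd209b and Cd209d are related genes, and whether their reads are shared was not tested.

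Of 12 endothelial markers, 3 were higher and 2 lower in NOD.B10 (median log2 fold change 0.04). These 5 calls fell to 1 with age in the model (6.15% of all tested genes passed), without NOD.B10 replicate 3 (8.95%) or without BL/10 replicate 2 (10.1%). They fell to 2 without NOD.B10 replicate 1 (8.12%) or 2 (12.9%). Lyve1, a hyaluronan receptor gene of lymphatic and some sinus endothelium, had 30.4, 23.2 and 22.2 CPM in NOD.B10 and 1.90, 1.88 and 7.56 CPM in BL/10, with a log2 fold change of 2.73 (standard error 0.48, edgeR adjusted p = 0.00866), and it passed in each of these fits. Of 12 plasma cell markers, 6 were higher and 0 lower (median 0.60), among them Mzb1, Sdc1 and Prdm1 (log2 fold changes of 0.87, 0.81 and 0.64). Of these 12, 0 passed with age in the model (6.15% of all tested genes), and 3 without NOD.B10 replicate 3 (8.95%) or without BL/10 replicate 3 (11.2%). Of 10 dendritic cell markers, 0 passed (median 0.14). Of 20 pancreas acinar markers, 16 passed the filter on low counts, 15 of them with at most 17 counts in any NOD.B10 library, so that BL/10 libraries carried them through it, and all 16 were lower in NOD.B10 in edgeR. Of these calls, 0 were made without NOD.B10 replicate 1 (8.12% of all tested genes) or 3 (8.95%). Without NOD.B10 replicate 2 (12.9%) or with limma-voom and quality weights (21.8%), 1 was made.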
